A study of Mus musculus with 2 samples.

Results

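Ace, Agtrap, Ece1 and Ednrb are 4 of the 32285 genes counted in the CD45+ cells of the mouse adrenal gland, and they belong to the angiotensin and endothelin systems. The genes were chosen by name with the values described here already known, namely their summed UMIs and the share of cells with a UMI in monocytes, macrophage subsets, lymphocytes and endothelial cells, so those levels are a description and carry no test. UMIs, unique molecular identifiers, count the RNA molecules read. All 4 were found in both libraries. The samples were adrenal glands of C57Bl/6 mice aged 7 weeks, cleared of fat and digested with Liberase and DNase I, from which live CD45+ cells were sorted and counted with a droplet 3′ kit. There was 1 library from female and 1 from male mice, with no treatment or genetic change in either, and the number of mice behind each was not stated in the sources used here. Cells of a library are not replicates, so every interval below covers counting error only, and sex and library cannot be told apart.

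Angiotensin II is made from angiotensin I by the angiotensin converting enzyme, encoded by Ace, a peptidase anchored in the membrane that is best known from the endothelium of the lung. In the adrenal cortex angiotensin II drives the release of aldosterone through the AT1 receptor, and the protein encoded by Agtrap binds the tail of that receptor and favours its uptake into the cell. Endothelins are short peptides that act on blood vessels. The endothelin converting enzyme, encoded by Ece1, cuts them from their precursors, and the endothelin B receptor, encoded by Ednrb, binds them, clears them from the circulation and in endothelium signals for relaxation of the vessel.

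The female library held 3963 barcodes and 16218309 UMIs, and the male library 2685 barcodes and 9512670 UMIs. After filtering, 3694 female cells with a median of 3489.5 UMIs and 2449 male cells with a median of 3008 UMIs were kept, and the libraries shared 2 barcodes among the kept cells. Xist was detected in 75.7% of female and 0.0817% of male cells and Ddx3y in 0 female cells and 21.1% of male cells, which fits the labels. Cells were put into classes by markers that include none of the 4 genes, and the cells that fitted no class were 7.80% in the female and 7.47% in the male library. The level of a gene is its summed UMIs in a class per 1000000 UMIs of all genes in that class (CPM). Ranges in parentheses are exact 95% intervals, from the Poisson distribution for levels, the conditional binomial for ratios and Clopper-Pearson for shares of cells. Shares of cells with a UMI are given over all cells and again after 1000 UMIs were drawn from each cell, which leaves out shallower cells.

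Markers kept out of the gates were used to check the classes. All 3 such markers of Lyve1-high macrophages were at least 2-fold higher in the class than in the other cells in both libraries, as were all 4 of nonclassical monocytes in females and 3 of 4 in males. Of 4 endothelial markers, Tek, Tie1 and Plpp3 were more than 2-fold higher in both libraries, while Vwf had 0 UMIs in the female and 1 in the male endothelial cells. The dendritic cell gate was the weakest, since only Dpp4 of its 3 check markers was 2-fold higher and Ccr7 had 0 UMIs in both libraries. Ptprc, which encodes CD45, had a UMI in 8.33% of female and 13.2% of male endothelial cells, against 52.3% and 43.4% of Lyve1-high macrophages and 92.6% and 92.4% of nonclassical monocytes. The endothelial cells therefore passed a CD45 sort with little Ptprc RNA, and why they did was not tested.

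Ace was a gene of nonclassical monocytes, the patrolling monocytes marked here by Treml4, Cd300e, Eno3, Adgre4, Gngt2 and Spn. In this class it had 127 UMIs over 95 female cells and 118 over 79 male cells, or 523 CPM (436 to 622) and 537 CPM (444 to 643). Classical monocytes held 32 UMIs over 185 female cells and 29 over 76 male cells, or 43.3 CPM (29.6 to 61.1) and 96.5 CPM (64.6 to 138.5). The nonclassical level was thus 12.1 times the classical in females (8.15 to 18.4) and 5.57 times in males (3.68 to 8.67), and these intervals overlap. With Leiden clusters in place of the marker gates the ratios were 6.30 (4.17 to 9.86) and 4.26 (2.82 to 6.66). The nonclassical levels were then lower, at 322 CPM (273.5 to 376.7) in females and 430 CPM (360 to 510) in males. For comparison, 4.01% of 2094 female genes and 5.86% of 922 male genes with at least 50 UMIs in either class were at least 2-fold higher in nonclassical monocytes. Ace met that minimum only through the nonclassical class, where it is high and for which it was chosen, so nothing is read from its place among them. Together the monocyte classes held most Ace UMIs, 63.2% and 67.0% of all those in the female and male library in nonclassical and 15.9% and 16.5% in classical cells.

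Ace was detected in 56 of the 95 female (58.9%, 48.4 to 68.9) and 49 of the 79 male nonclassical monocytes (62.0%, 50.4 to 72.7), and in 38.8% and 36.8% after the draw to equal depth. In classical monocytes the shares were 13.5% and 23.7%, or 6.67% and 12.2% at equal depth. B cells, taken as a class that should lack the gene, had Ace in 0 of 513 female cells (a count of 0 leaves room for 0.585%) and in 0 of 266 male cells (room for 1.13%). Median depth was 2193 and 2324 UMIs in nonclassical monocytes against 2199 and 1779.5 in B cells. Measured against the 3 counts that a 0 allows in each library, the nonclassical level was at least 299-fold higher than that of B cells in females and at least 128.7-fold higher in males. These bounds take the nonclassical level as counted, and with its counting error included the lower limits of the exact intervals were 239.7 and 103.1. The signal was spread over many cells, with 19 female and 21 male nonclassical monocytes holding 3 or more Ace UMIs and the 5 richest cells holding 26.0% and 22.9% of the class total.

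**Figure D1:**
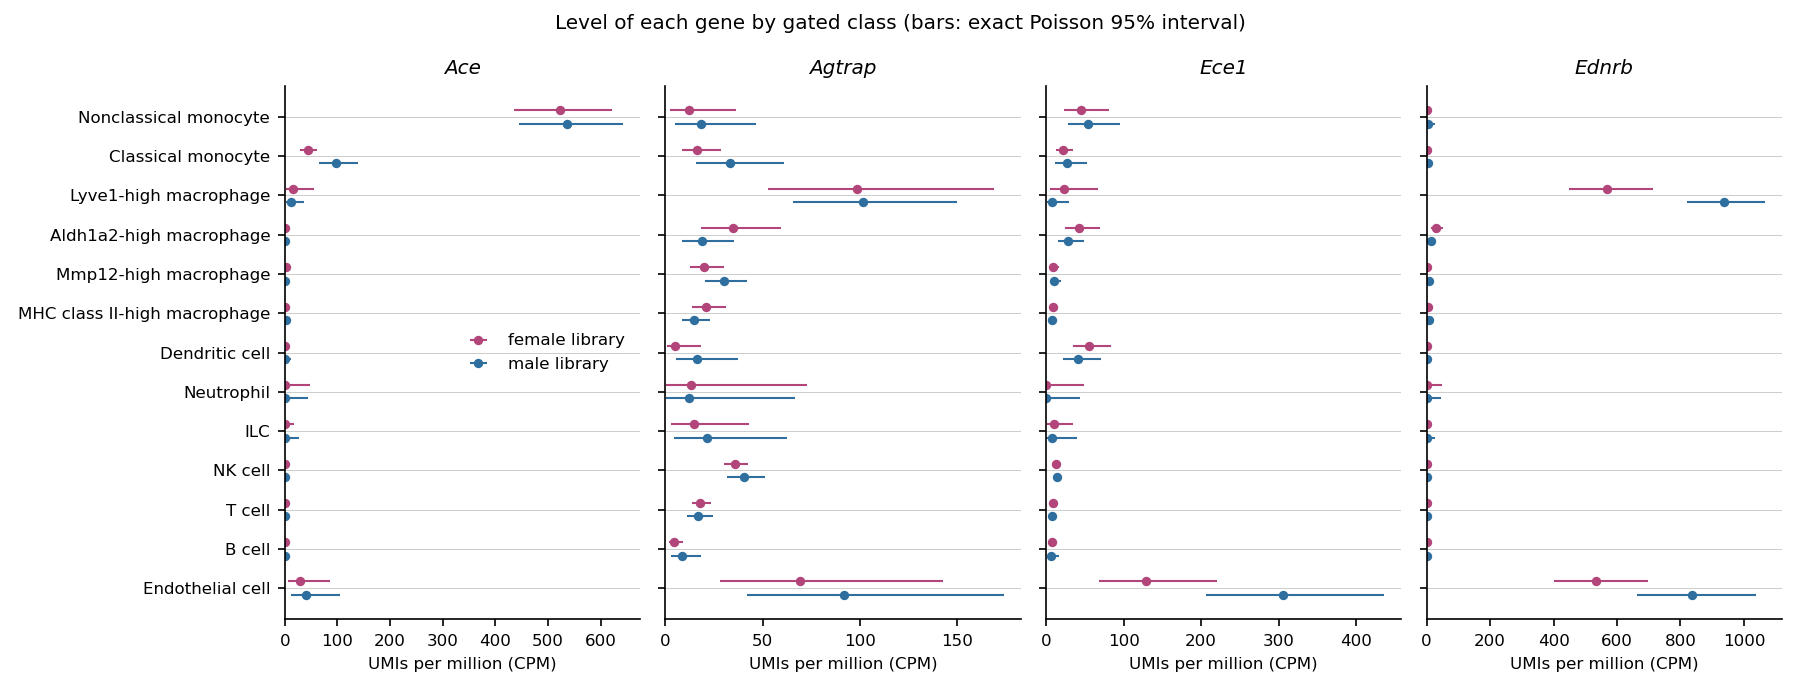
Level of each gene (CPM, x axis) in the 13 ranked classes with at least 20 cells in both libraries (y axis). There is 1 point per library, with bars for the exact Poisson 95% interval. The shallow gated macrophages that joined no subset, 68 female and 141 male cells, are not ranked. Their Ednrb level was 84.6 CPM in females and 82.1 CPM in males. MHC class II-low macrophages, 142 female and 18 male cells, are not ranked or shown either. Their Ednrb level was 36.1 CPM in females and 387 CPM in males, the latter from 1 cell. Ace stands at 523 and 537 CPM in nonclassical monocytes, Ednrb is high in Lyve1-high macrophages and endothelial cells, Ece1 is highest in endothelial cells, and Agtrap is spread over more classes.

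Within gated monocytes the Ace level followed the number of nonclassical markers a cell held. Cells with 0 of the 6 markers had 6.50 CPM in females and 28.2 CPM in males, from 1 UMI each. With 1 marker the level was 43.0 and 77.7 CPM, with 2 it was 90.6 and 144.0 CPM, with 3 it was 308 and 339 CPM, and with 4 or more it was 683 CPM (546 to 845) and 623 CPM (495 to 774). Each step was upward in both libraries, and the share of cells with an Ace UMI went from 2.56% to 71.4% in females and from 7.14% to 73.3% in males. Intervals of neighbouring steps overlapped up to 2 markers, so the rise over 0, 1 and 2 markers lay within counting error from step to step. Those with 2 and 3 markers did not overlap, at 58.1 to 134.8 and 214 to 428 CPM in females and 82.3 to 233.8 and 241 to 463 CPM in males. Macrophages held little Ace. The pooled Mmp12-high, MHC class II-low and MHC class II-high adrenal gland macrophages (AGMs) had 5 and 4 UMIs, or 1.70 and 1.67 CPM, and the nonclassical level was 308 (128 to 964) and 322 (123 to 1203) times higher. Lyve1-high macrophages, which are not in this pool, had 2 and 3 Ace UMIs, or 15.2 CPM (1.84 to 54.9) and 12.2 CPM (2.51 to 35.6), in each library from 1 cell. Their ratio to the pool was 8.93 (0.850 to 54.6) in females and 7.31 (1.07 to 43.2) in males. Endothelial cells, the textbook site of the enzyme, had 3 female and 4 male Ace UMIs, in each library from 1 single cell of 36 and 38.

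Ace lies at chr11:105967945-105989964 on the plus strand (GRCm38, GENCODE vM21, gene ENSMUSG00000020681). Its 3 coding transcripts all end within 1000 bases of the end of the gene, so UMIs read from the 3′ end do not tell them apart. An antisense gene, Gm11651, overlaps Ace. The RefSeq table holds 2 Ace promoters, and the 250 bases before the upstream start (GRCm38.p6, chr11:105967698-105967947, plus strand) are shown because Ace split 2 related monocyte classes. Capitals mark on either strand the motif TATAA, the motif GGGCGG and the motif AGGAAG (a core bound by ETS factors).
Ace promoter: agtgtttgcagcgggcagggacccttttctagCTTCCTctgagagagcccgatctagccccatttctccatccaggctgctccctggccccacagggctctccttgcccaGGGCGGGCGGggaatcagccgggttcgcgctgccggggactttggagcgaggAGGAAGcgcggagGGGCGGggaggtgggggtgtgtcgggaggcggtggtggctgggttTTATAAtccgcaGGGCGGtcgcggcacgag
This stretch holds GGGCGG 4 times, with 2 copies overlapping, AGGAAG 2 times, and TATAA once on each strand in overlapping letters, the nearest 29 bases before the start. Of 32536 promoter stretches of this length, 33.0% hold GGGCGG, 29.6% AGGAAG and 22.7% TATAA on either strand. Neither CCAAT, in 33.8% of the stretches, nor CACGTG, in 6.04%, is among these letters. The stretch before the internal start holds CCAAT once and none of the other 4 motifs.

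Agtrap (chr4:148077061-148088031, minus strand, ENSMUSG00000029007) was low and widespread, and the classes with the highest values were Lyve1-high AGMs and endothelial cells, both on few UMIs. Lyve1-high AGMs, gated by Lyve1, Folr2, Fcna, Cd209f, Cbr2 and Timd4, held 13 Agtrap UMIs over 44 female cells and 25 over 106 male cells, or 98.7 CPM (52.6 to 169) and 101.5 CPM (65.7 to 149.8). The other AGMs pooled had 21.4 and 22.1 CPM from 63 and 53 UMIs. Lyve1-high AGMs were 4.61 (2.33 to 8.46) and 4.599 (2.74 to 7.53) times higher, in a comparison in which 14.2% of 6106 female and 11.9% of 5533 male genes with at least 50 UMIs in either group were at least 2-fold higher. Agtrap and Ednrb were among them in each library, but Ednrb met the minimum only through Lyve1-high AGMs and both were chosen with these levels known, so nothing is read from this. The female value rests on few UMIs and on cells with a higher mitochondrial share: with a ceiling of 5% in place of 15% it was 1.43 (0.169 to 5.40), from 2 UMIs. Without the 5 richest cells the female Lyve1-high level was 43.6 CPM (14.2 to 101.8), from 5 UMIs, and the male 74.4 CPM (43.4 to 119). Endothelial cells had 7 and 9 Agtrap UMIs, or 69.2 and 91.7 CPM, and did not differ from Lyve1-high AGMs beyond counting error, with ratios of 0.701 (0.237 to 1.89) and 0.904 (0.371 to 2.00). The endothelial value was lower under 3 settings, although only the last of them took it outside its interval. It was 34.5 and 43.9 CPM with Leiden clusters in place of gates and 32.2 and 45.1 CPM with the 5% ceiling, close to the level of natural killer cells, and 14.5 and 11.4 CPM, from 1 UMI each, without the 5 richest cells.

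Natural killer (NK) cells gave the best counted Agtrap level, with 137 female and 71 male UMIs, or 35.7 CPM (30.0 to 42.2) and 40.6 CPM (31.7 to 51.3). They held 39.5% and 28.3% of all Agtrap UMIs and were a large class, with 21.74% and 13.35% of the kept cells. T cells had 17.9 and 16.7 CPM and B cells 4.67 and 8.34 CPM. NK cells stood above T cells by 2.00 (1.45 to 2.79) and 2.43 (1.53 to 3.97) times in the female and male library, and above B cells by 7.66 (3.78 to 18.1) and 4.87 (2.13 to 13.7) times. T cells were 3.83 times B cells in females (1.81 to 9.32), whereas the male ratio of 2.01 (0.807 to 5.96) lay within counting error. Within NK cells, those with an Eomes but no Itga1 UMI had 42.5 and 49.4 CPM and those with Itga1 but no Eomes 32.7 and 40.1 CPM, with overlapping intervals. The share of NK cells with an Agtrap UMI was 14.7% and 19.3% at medians of 4168 and 4853 UMIs, against 1.17% and 1.88% of B cells at 2199 and 1779.5. At equal depth the shares were 2.90% (1.85 to 4.32) and 3.68% (1.92 to 6.34) against 0.405% and 1.19%.

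Ece1 (chr4:137862237-137965229, plus strand, ENSMUSG00000057530) was highest in endothelial cells in both libraries. It had 13 UMIs over 36 female cells and 30 over 38 male cells, or 129 CPM (68.5 to 219.9) and 306 CPM (206 to 436). Next in females were dendritic cells with 22 UMIs and 55.5 CPM, and next in males nonclassical monocytes with 12 UMIs and 54.6 CPM. Male dendritic cells had 13 UMIs and 41.8 CPM, and female nonclassical monocytes 11 UMIs and 45.3 CPM. The endothelial level was 2.32 (1.07 to 4.81) times that of dendritic cells in females and 7.32 (3.71 to 15.3) times in males. It rested on a few cells, since the 5 richest held 69.2% and 60.0% of the endothelial Ece1 UMIs. Without them it was 48.1 CPM (13.1 to 123) in females, below the 55.5 CPM of all dendritic cells, and 147.5 CPM (76.2 to 258) in males, and with Leiden clusters the male level was 175 CPM. Behind the endothelial cells the classes were close, and dendritic cells, nonclassical monocytes and Aldh1a2-high AGMs (42.9 and 28.9 CPM) did not differ from the next in order beyond counting error.

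Among the myeloid cells, Ece1 was lower in most AGMs than in these classes. The other AGMs pooled had 24 and 21 UMIs, or 8.16 and 8.74 CPM. Against them dendritic cells were 6.80 (3.64 to 12.7) and 4.78 (2.20 to 10.00) times higher, nonclassical monocytes 5.55 (2.46 to 11.8) and 6.25 (2.80 to 13.3) times, and Aldh1a2-high AGMs, gated by Aldh1a2, Retnla, Fn1, Fcrls and Lyz1, 5.25 (2.61 to 10.3) and 3.303 (1.55 to 6.81) times. Within dendritic cells, those with Xcr1 or Clec9a had 69.6 and 45.8 CPM and those with Cd209a or Clec10a 52.3 and 31.0 CPM, again with overlapping intervals. Lymphocytes carried a low level, 12.5 and 13.7 CPM in NK cells, 9.27 and 7.72 in T cells and 7.58 and 6.95 in B cells. Ece1 had 0 UMIs in neutrophils of both libraries, which allows up to 39.3 CPM over 46 female and 35.9 CPM over 49 male cells, so a level as low as that of NK cells could not have been detected there.

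The share of endothelial cells with an Ece1 UMI was 25.0% (12.1 to 42.2) and 39.5% (24.0 to 56.6), at medians of 2134.5 and 1939.5 UMIs, and at equal depth 7.14% (0.877 to 23.5) and 21.4% (8.30 to 41.0), from 2 and 6 of 28 cells each. In B cells it was 2.53% and 1.88%, or 1.01% and 0.794% at equal depth. Dendritic cells gave 28.4% and 22.2% at medians of 5131 and 5446 UMIs but 4.23% (0.880 to 11.9) and 1.92% (0.0487 to 10.3) at equal depth, from 3 and 1 cells. At equal depth these intervals overlapped in females and, narrowly, in males. Only 1 of the 3 coding Ece1 transcripts ends within 1000 bases of the end of the gene, and an antisense gene, Gm13012, overlaps it.

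Ednrb (chr14:103814625-103844402, minus strand, ENSMUSG00000022122) had high levels in 2 unrelated classes, Lyve1-high AGMs and endothelial cells. Lyve1-high AGMs held 75 Ednrb UMIs over 44 female cells and 231 over 106 male cells, or 569.5 CPM (448 to 714) and 938 CPM (821 to 1067). Endothelial cells held 54 over 36 female and 82 over 38 male cells, or 534 CPM (401 to 697) and 835 CPM (664 to 1037). The 2 classes did not differ beyond counting error, with endothelial to Lyve1-high ratios of 0.938 (0.648 to 1.35) and 0.891 (0.684 to 1.15). Together they held 39.7% and 28.6% of all female and 60.8% and 21.6% of all male Ednrb UMIs, although they were only 1.19% and 0.975% of the female and 4.33% and 1.55% of the male cells. The third of the 13 ranked classes with at least 20 cells in both libraries, Aldh1a2-high AGMs, had 29.5 and 14.4 CPM. The endothelial level was 18.1 (9.37 to 38.5) and 57.9 (26.9 to 148) times higher. The ranking leaves out gated macrophages under 1000 UMIs that joined no subset, 68 female and 141 male cells. Their Ednrb level lay above that of Aldh1a2-high AGMs, at 84.6 CPM (23.1 to 216.6) and 82.1 CPM (35.5 to 161.8), from 4 and 8 UMIs. Classes with fewer than 20 cells in a library are also unranked, among them MHC class II-low AGMs with 142 female and 18 male cells. Ednrb stood at 36.1 CPM (22.6 to 54.7) and 387 CPM (240 to 592) there, again above Aldh1a2-high AGMs. The female intervals of these 2 classes overlapped, and all 21 male UMIs came from 1 cell.

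The other AGMs pooled had 28 and 37 Ednrb UMIs, or 9.52 and 15.4 CPM, and Lyve1-high AGMs were 59.8 (38.3 to 95.9) and 60.9 (42.9 to 88.6) times higher. The size of this ratio depended on how the cells were grouped. It was 257 (95.95 to 969) and 208 (99.3 to 522) with Leiden clusters, and in females 129.0 (67.9 to 262) with the 5% mitochondrial ceiling and 23.7 (15.5 to 35.8) with 1 more gate marker. Even these few UMIs were concentrated, since 22 of the female UMIs lay in 5 MHC class II-low cells and 21 of the male UMIs in a single one. Monocytes, dendritic cells, neutrophils, innate lymphoid cells (ILCs) and lymphocytes had between 0 and 3 Ednrb UMIs in each library. Ednrb was detected in 52.3% (36.7 to 67.5) of female and 66.0% (56.2 to 74.96) of male Lyve1-high AGMs and in 47.2% (30.4 to 64.5) and 60.5% (43.4 to 76.0) of endothelial cells. At equal depth the shares were 39.5% and 53.1% in Lyve1-high AGMs and 25.0% and 46.4% in endothelial cells, and 0 in the B cells of both libraries. Without the draw, B cells had Ednrb in 0 of 513 female cells, which leaves room for 0.585%, and in 1 of 266 male cells. Median depth was 2184.5 and 1994.5 UMIs in Lyve1-high AGMs, close to the 2199 and 1779.5 of B cells.

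The 250 bases before the RefSeq start of Ednrb (GRCm38.p6, chr14:103843702-103843951, minus strand) are shown because the same receptor gene was read at similar levels in a macrophage and an endothelial class. They lie inside the GENCODE span of the gene given above, which on this strand begins farther upstream, at base 103844402. Capitals mark CCAAT on the reverse strand, read here as ATTGG.
Ednrb promoter: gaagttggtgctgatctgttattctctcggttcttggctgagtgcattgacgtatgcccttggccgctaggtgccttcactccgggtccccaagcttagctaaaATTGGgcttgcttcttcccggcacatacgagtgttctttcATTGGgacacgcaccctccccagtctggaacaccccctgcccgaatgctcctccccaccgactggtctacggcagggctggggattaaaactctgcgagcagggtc
CCAAT occurs 2 times, the nearest 106 bases before the start, and none of the other 4 motifs is among these letters. The stretch before the first of 4 RefSeq starts of Ece1 also holds CCAAT 2 times and none of the other motifs, and that of Agtrap holds CACGTG once and none of the others. All 3 coding transcripts of Ednrb share their 3′ end within 1000 bases.

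**Figure D2:**
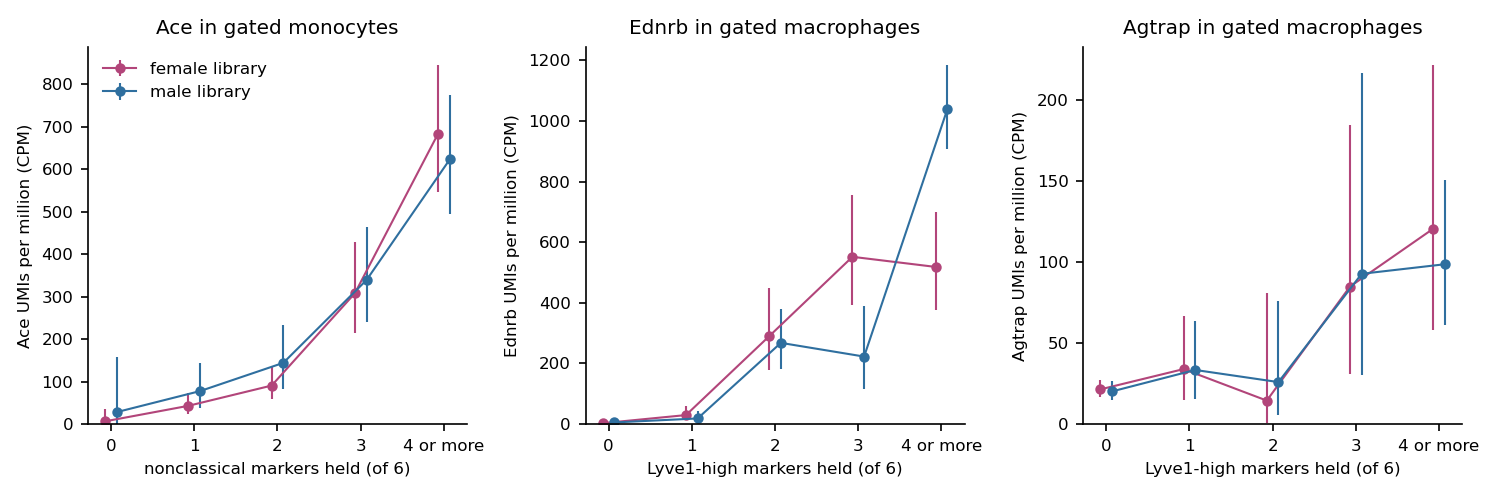
Level (CPM, y axis) of Ace in gated monocytes by the number of nonclassical markers held, and of Ednrb and Agtrap in gated macrophages by the number of Lyve1-high markers held (x axes), 1 line per library, with bars for the exact Poisson 95% interval. Ace climbs at each step, to 683 and 623 CPM, with overlapping intervals of neighbouring steps up to 2 markers. Ednrb and Agtrap are low below 2 and 3 markers.

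Across all gated AGMs, Ednrb was low in cells with 0 or 1 of the 6 Lyve1-high markers, at 2.97 and 5.43 CPM and at 29.7 and 18.6 CPM. Cells with 2 markers had 290 and 268 CPM, although 20 and 27 of their 20 and 31 UMIs came from the 5 richest cells. In each library 1 of these, with 12 and 21 Ednrb UMIs, was rich in Fn1 (described below), and without it the level was 127 CPM (54.8 to 249.9) and 95.8 CPM (46.0 to 176). With 3 markers the level was 552 CPM (392 to 754) in females and 223 CPM (115 to 389) in males, and with 4 or more it was 518 CPM (375 to 698) and 1038 CPM (906 to 1185). Of the 39 female UMIs in cells with 3 markers 34 came from the 5 richest cells and 18 from 1 further Fn1-rich cell, without which the level was 350 CPM (217 to 536), overlapping the male interval. Agtrap had 21.4 and 20.2 CPM with 0 markers, 33.9 and 33.4 CPM with 1, 14.5 and 25.9 CPM with 2, from 1 and 3 UMIs, 84.9 and 92.8 CPM with 3 and 121 and 98.7 CPM with 4 or more. Within Lyve1-high AGMs, Ednrb was read in cells both low and high in MHC class II (641 and 507 CPM in females, 1471 and 713 CPM in males) and in cells with and without a Timd4 UMI (592 and 545 CPM in females, 1145 and 807 CPM in males). This last Fn1-rich cell held 18 of the 31 female UMIs in MHC class II-low cells and of the 41 in cells with Timd4. Without it these levels were 346 CPM (184 to 591) and 393 CPM (249 to 589), so the female order turned in both splits. Only the male intervals for MHC class II, 1198 to 1788 against 591 to 852, did not overlap. The 5 richest cells held 54 of the 101 UMIs in the 31 male MHC class II-low cells. In the 65 male MHC class II-high cells they held 35 of 121. Lyve1-high AGMs without a Ptprc UMI had 729 and 1022 CPM of Ednrb and those with one 504 and 862 CPM.

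A few cells carried many Ednrb UMIs. Of the 5 cells with at least 12, the richest was a male endothelial cell with 34 Ednrb and 5 Ece1 UMIs. Of the other 4, 3 were gated macrophages with 21, 18 and 12 Ednrb UMIs that also held 189, 129 and 99 UMIs of Fn1 (fibronectin), 36, 42 and 23 of Prg4 (lubricin), 18, 20 and 18 of Alox15 (a lipoxygenase) and 5, 16 and 5 of Timd4 (a receptor for apoptotic cells). They also held 2, 6 and 0 UMIs of Gata6 (a transcription factor known from macrophages of the peritoneal cavity), 3, 7 and 2 of Selp and 5, 2 and 5 of Icam2. They had 0 UMIs of Lyve1, Folr2 and Cd209f and at most 1 of H2-Aa. These cells, 2 female and 1 male, stood at 1803 and 1846 CPM of Ednrb. They were singled out after their values were seen, and 1 of them fell in the Lyve1-high and 2 in the MHC class II-low gate. The gates did not use Gata6, Prg4 or Alox15, and whether these cells belong to the adrenal gland was not tested. Without them the Lyve1-high level was 86.4 (49.0 to 161) times that of the other AGMs in females and 140.1 (84.5 to 249) times in males.

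**Figure D3:**
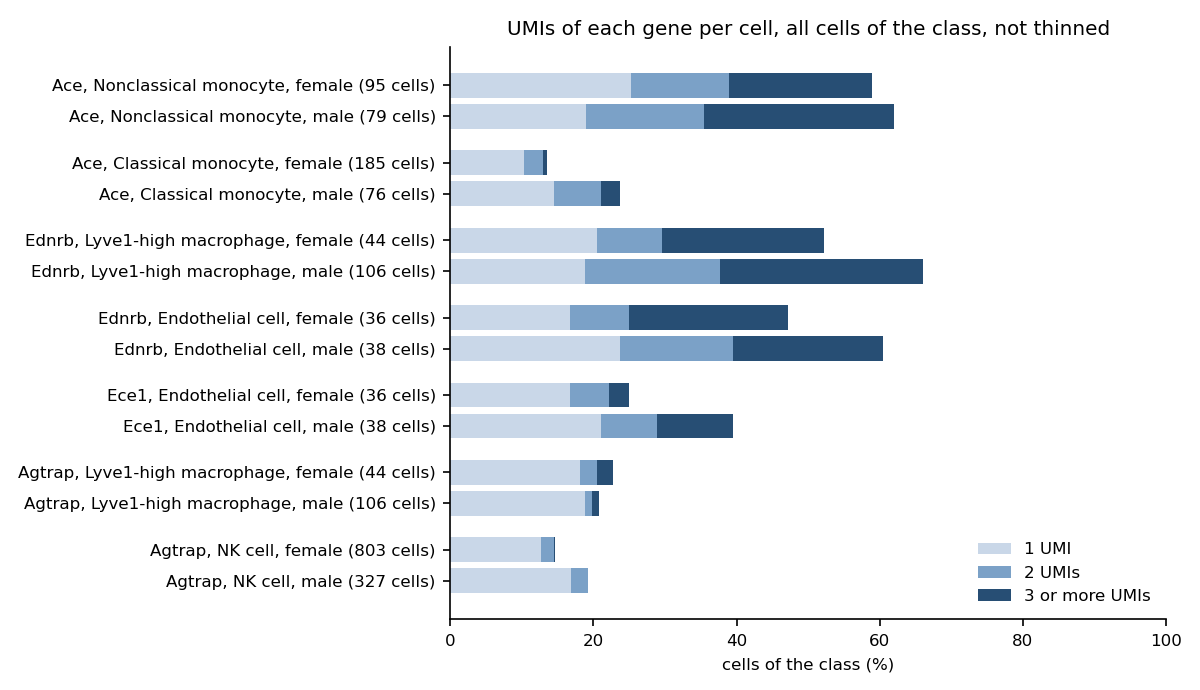
Share of the cells of a class (x axis, in percent) with 1, 2 or 3 and more UMIs of a gene, for 7 pairs of gene and class in each library (y axis, with the number of cells), without thinning. Cells with 3 or more UMIs were common for Ace in nonclassical monocytes and Ednrb in Lyve1-high macrophages and endothelial cells, and rare for Agtrap.

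Ednrb and Ece1 were read in the same endothelial cells in part. Of 36 female endothelial cells, 5 held both, 12 Ednrb alone, 4 Ece1 alone and 15 neither, and of 38 male cells 9 held both, 14 Ednrb alone, 6 Ece1 alone and 9 neither. Endothelial cells with a UMI of Plvap, a protein of fenestrated endothelium, had 582 and 1025 CPM of Ednrb, and those without it 296 and 250 CPM, with intervals that overlapped in females (430 to 769 and 96.2 to 691) and not in males (807 to 1283 and 91.8 to 544). The male difference rested on 1 cell, picked out after its value was seen, which held 34 of the 76 UMIs with Plvap, and without it the level was 609 CPM (439 to 824) and the intervals overlapped. Ece1 had the opposite order, 94.99 and 243 CPM with Plvap and 296 and 500.0 CPM without, and its intervals overlapped in both libraries. Neither Edn1 nor Ednra had a UMI in these cells. Endothelial cells also held more cortical RNA than the other ranked classes. The sum of 6 steroid synthesis genes (1 of the 6 at 0 in each library) was 2572 CPM in females and 581 CPM in males. In the other 12 ranked classes it was 14.2 to 304 CPM and 9.64 to 365 CPM. The part of this in the endothelial values was not tested. Without a Ptprc UMI, endothelial cells had 460 and 1035 CPM of Ednrb and 138 and 414 CPM of Ece1. The 3 female and 5 male cells with one had 993.5 CPM (543 to 1667) and 393 CPM (203 to 687) of Ednrb. The order was thus opposite in the 2 libraries. Only the male intervals did not overlap (807 to 1307 without Ptprc), and the male cell with 34 Ednrb UMIs was among those without Ptprc. With Ptprc, Ece1 had 71.0 and 65.55 CPM, from 1 and 2 UMIs.

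Ace and Ece1, each a peptidase that makes an active peptide, were both read in 8 of 95 female and 5 of 79 male nonclassical monocytes, against 48 and 44 with Ace alone and 2 and 3 with Ece1 alone. Over all kept cells, 562 female and 442 male cells held UMIs of 1 member, 54 and 57 of 2, 5 and 5 of 3, and 0 of all 4.

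The female and male libraries were compared within classes. Ace in nonclassical monocytes had a female to male ratio of 0.974 (0.752 to 1.26), in a class where 6.93% of 765 genes with at least 50 UMIs in either library were past 1.5-fold in either direction and Ace was not. With Leiden clusters in place of gates, which put more cells in the class, the Ace ratio was 0.748 (0.590 to 0.950) and excluded 1. The ratio of Agtrap in NK cells was 0.879 (0.655 to 1.19), where 5.22% of 6937 genes were past 1.5-fold and Agtrap was not. Ednrb was lower in the female library in both of its classes, with a ratio of 0.607 (0.462 to 0.791) in Lyve1-high AGMs and 0.639 (0.445 to 0.912) in endothelial cells. As 20.1% of 730 genes in Lyve1-high AGMs and 19.0% of 315 genes in endothelial cells were past 1.5-fold as well, 1 of 1 member past that fold in each says little about Ednrb itself. The share of cells that were Lyve1-high AGMs differed too, at 1.19% and 4.33%, and over all kept cells Ednrb had 12.6 and 42.1 CPM. Endothelial Ednrb rested on a few cells, since the 5 richest held 59.3% and 63.4% of its UMIs, and the interval came to include 1 without them (0.751, 0.413 to 1.35), with a mitochondrial ceiling of 5% (0.742, 0.496 to 1.10) and with Leiden clusters (0.830, 0.598 to 1.15). In Lyve1-high AGMs the 5 richest held 54.7% and 23.8%, and without them the ratio was 0.415 (0.279 to 0.602), while with the 5% ceiling it was 0.726 (0.493 to 1.05).

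Among the 19 pairs of member and class with at least 20 UMIs over both libraries, 4 had an interval that excluded 1, and in each the female level was the lower. Over all genes the same rule was met by 11.0% of 69539 pairs of gene and class, and by 6.47% with the lower level in females. In the classes of these 4 pairs the female level was the lower in this way for 6.53% of genes in classical monocytes, 5.63% in Lyve1-high AGMs and 7.17% in endothelial cells. Beside the 2 for Ednrb, these were Ace in classical monocytes at 0.449 (0.263 to 0.769) and Ece1 in endothelial cells at 0.421 (0.201 to 0.831). Leaving out the 5 richest cells widened both to include 1, at 0.538 (0.265 to 1.12) and 0.326 (0.0767 to 1.08), and for Ece1 so did the 5% ceiling (0.596, 0.246 to 1.36) and Leiden clusters (0.618, 0.350 to 1.07). None of the 7 Agtrap pairs excluded 1, and the Lyve1-high ratio was 0.973 (0.457 to 1.97). With 1 library for each sex, none of these ratios can be set against the spread between animals.

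**Figure D4:**
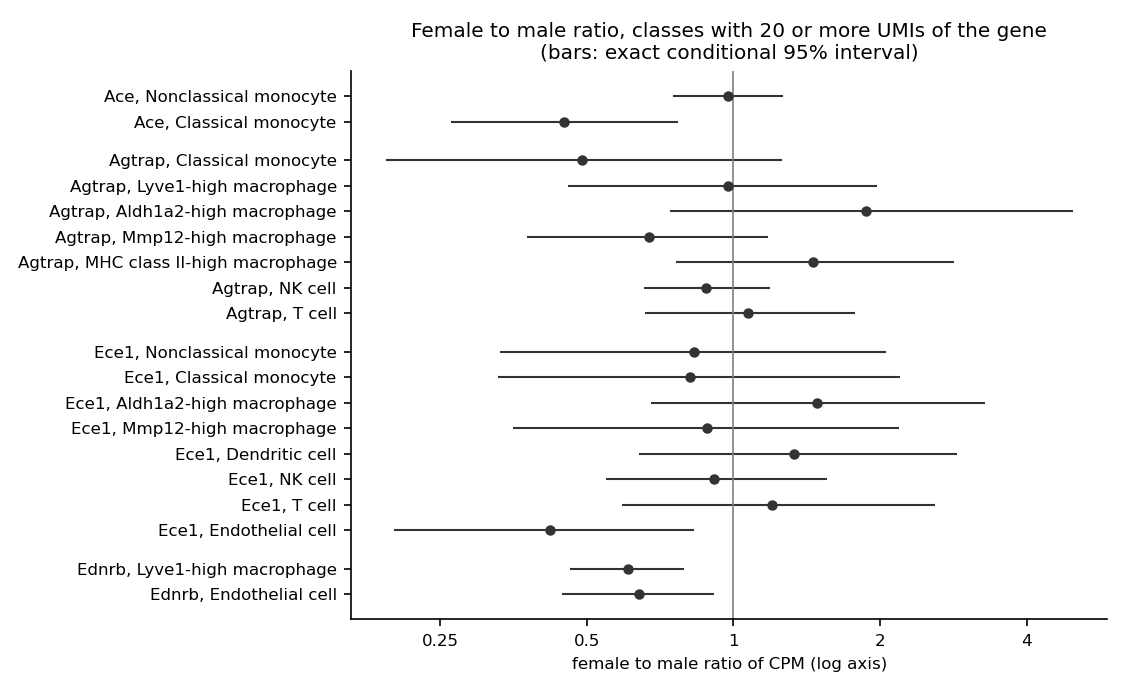
Female to male ratio of CPM (x axis, log scale) for the 19 pairs of gene and class with at least 20 UMIs (y axis), with bars for the exact conditional 95% interval and a line at 1. Both Ednrb ratios, Ace in classical monocytes and Ece1 in endothelial cells lie below 1 with their whole interval.

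The rest of each system was placed beside the members. Of 21 renin-angiotensin genes, 13 had at least 20 UMIs in a class of either library, including Ace and Agtrap. Renin, its substrate and the receptors of angiotensin II were nearly absent from the sorted cells. Ren1 had 1 UMI, Agt 2 and 1, and Agtr1a 11 and 12. Agtr1b, Agtr2 and Mme had between 1 and 10 in all. Mas1 had 0 UMIs, which allows 0.199 and 0.332 CPM over all kept cells. In female endothelial cells Agtr1a had 5 UMIs from 2 cells, or 49.5 CPM (16.1 to 115), and in male endothelial cells it had none.

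The peptidases that trim angiotensins had classes of their own. The leading classes named here are those among the ranked classes of at least 20 cells, and MHC class II-low AGMs were not among them. Enpep (aminopeptidase A, which cuts angiotensin II) was highest in endothelial cells at 119 CPM (61.3 to 207) and 204 CPM (125 to 315), and next in Lyve1-high AGMs at 30.4 and 64.9 CPM, the classes that also led for Ednrb and Agtrap. Prcp (a carboxypeptidase of angiotensin II) was highest in Aldh1a2-high AGMs at 522 and 612.5 CPM, followed by Lyve1-high AGMs at 364 and 467 CPM. Atp6ap2, the prorenin receptor, led in Mmp12-high AGMs at 237 and 273 CPM, and Ctsa, a lysosomal carboxypeptidase, stood at 552 CPM there in females and at 588.5 CPM in male Lyve1-high AGMs. Lnpep, an aminopeptidase that binds angiotensin IV, led in neutrophils at 537 and 466.5 CPM. Anpep led in dendritic cells at 25.2 and 45.0 CPM among the ranked classes of at least 20 cells.

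Chymase, which can also make angiotensin II, was read in other cells than Ace. Cma1 had 1328 UMIs in 23 female and 162 in 5 male mast cells or basophils, and NK cells led the ranked classes at 77.9 and 77.3 CPM. Mcpt4 had 197 and 53 UMIs in the same mast cell or basophil gate. Among the ranked classes Nln was highest in classical monocytes at 23.0 and 43.2 CPM. Prep and Thop1 stayed at or below 39.6 and 19.5 CPM in the ranked classes of at least 20 cells. Of 8 endothelin genes only Ednrb and Ece1 had at least 20 UMIs in a class. The ligand gene Edn1 had 6 and 4 UMIs, Ednra 5 and 6, and Edn3 and Ece2 1 UMI each, and Edn2 and Kel 0. All 4 kinin genes, Kng1, Kng2, Bdkrb1 and Bdkrb2, had between 1 and 10 UMIs in both libraries together.

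The genes whose pattern was most like each member were found by correlating log2(CPM + 10) over the 26 points of 13 classes in 2 libraries, among 8326 genes with at least 200 UMIs. The points share libraries and depth, and Pearson's r is given as a description. For Ace the closest were Plagl2 (r = 0.904), a zinc finger factor, Nxpe4 (0.893), Arhgef10l (0.878), Hpse (0.851), the heparan sulfate cutting enzyme heparanase, and Nupr1 (0.842). For Ednrb they were Gas6 (0.934), a ligand of the TAM receptors, Kitl (0.916), the ligand of Kit, Rgl1 (0.904), Igfbp4 (0.887) and Pmp22 (0.876). For Ece1 they included Cd300lg (0.889), known from capillary endothelium, Mmut (0.838), Pank3 (0.8001) and Crip2 (0.7997). For Agtrap they were Calm2 (0.847), a calmodulin gene, Sema6d (0.844), Fez2 (0.836), Rgl1 (0.823) and Klhl9 (0.819). Rgl1 was thus close to both Ednrb and Agtrap. These lists depended on the settings. With a pseudocount of 1 in place of 10, 2 of 5 genes stayed for Ace, Agtrap and Ece1 and 3 of 5 for Ednrb. Plagl2, Gas6 and Calm2 kept first place, and Cd300lg left the list. A minimum of 500 in place of 200 UMIs removed only genes below that minimum, 4 of 5 for Ace and Ece1 and 2 of 5 for Agtrap and Ednrb.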

How the data were processed

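The deposited values are raw UMI counts per gene and cell barcode of 1 female and 1 male library. Per the labels and file headers, the authors demultiplexed, aligned and counted reads with Cell Ranger 4.0.0 (mm10 in the submitters' processing notes) and dropped poor barcodes with DropletUtils at the knee of the rank plot. The annotation was not given in the sources used here; 32158 of the 32285 gene IDs are in GENCODE vM21. The study states a mitochondrial ceiling whose scale could not be settled here. Read as a percent it would keep few of the deposited barcodes, so a ceiling of 15% was used. Counting at 3′ ends depends on how well each gene's end is annotated, so levels were compared between cells and not between genes.

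Barcodes with at least 200 genes and at most 15% mitochondrial UMIs were kept. Scrublet in scanpy 1.11.5 marked 1 female and 8 male barcodes on its own, so the highest scores were removed at 0.8% per 1000 barcodes (126 female, 58 male). A cell joined a class when it held at least 2 of its markers, its mean marker score (log2 of depth-scaled counts plus 1, capped at the 75th percentile of cells with the marker) was the highest and other lineages reached at most 0.75 of it. Macrophages with at least 3 markers of Lyve1-high or Aldh1a2-high cells formed those classes. The rest were Mmp12-high (at least 2 of 3 markers) or split at 10 MHC class II UMIs per 1000, with shallower cells kept apart. These shallower cells were left out when the classes were ranked, as were classes with fewer than 20 cells in a library, such as MHC class II-low macrophages. The members, lists and markers were chosen with earlier results of these data known, and the scoring was set after the cells had been seen. Named were the members, pathway genes with at least 20 UMIs in a class, and the 5 genes most like each member. Genes that meet this rule but are not named are not reported here. Counts were summed per class and library (scipy 1.17.1, numpy 2.4.6). No test was run and there is no p-value, since each sex has 1 library. The scripts were tested on simulated data. Alternatives were other mitochondrial ceilings, no doublet removal, 1 more marker, Leiden clusters, other CPM totals, other thinning depths, other minimum UMIs and pseudocounts and leaving out the 5 richest cells. Protein sequences were not used here.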

Additional observations from a re-analysis of the deposited data

Results flagged for a closer look

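UMIs of the members were also present in the barcodes removed by the filters, 269 female and 236 male, which enter no comparison. Ednrb had 45 UMIs in removed male and 6 in removed female barcodes. Of the male UMIs, 43 lay in 21 barcodes over the mitochondrial ceiling, and the 31 removed male barcodes that held at least 3 Lyve1-high markers stood at 613 CPM (427 to 853). Agtrap had 33 female and 17 male UMIs in removed barcodes and Ece1 20 and 19. Ace had 14 female UMIs, 9 of them in barcodes removed as doublets, and the 3 male Ace UMIs came from 1 barcode.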

How the results depend on the processing

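The levels and shares of the members in their leading classes and the main ratios between classes and libraries were recomputed under the alternatives, and of these ratios none whose interval excluded 1 changed its direction. The levels of pathway genes, the other ratios between classes and the other female to male pairs were not. Of 44 recomputed female to male ratios 42, and of 38 ratios between classes 31, stayed within the interval of the reported value. With Leiden clusters, the female to male ratio of Ace in nonclassical monocytes was 0.748, the female nonclassical to classical ratio of Ace 6.30, and the Lyve1-high to other macrophage ratio of Ednrb 257 in females and 208 in males. With a 5% mitochondrial ceiling the female Lyve1-high ratio was 1.43 for Agtrap and 129.0 for Ednrb, and with 1 more gate marker the latter was 23.7. Without the Fn1-rich cells, an alternative chosen after seeing the data, the male ratio of Ednrb was 140.1. Without the 5 richest cells the female to male ratio of Ednrb in Lyve1-high macrophages was 0.415. With the 5% ceiling the intervals of the female to male ratio of Ednrb and Ece1 came to include 1. Of 170 recomputed levels 136, and of 120 shares 89, stayed within the interval. The causes were not tested. Depth limits the small classes, and no paired analysis was possible because the labels give 1 library per sex.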
